A study of Mus musculus with 8 samples.

Results

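Horizontal cells are the interneurons of the outer retina. Their processes meet rod and cone terminals beside the dendrites of bipolar cells, receive glutamate from photoreceptors through ionotropic receptors, and return an inhibitory signal for which GABA, protons and hemichannels have been proposed as carriers. Neighbouring horizontal cells are joined by gap junctions, and in the mouse a single axon-bearing type is known, whose fate depends on the homeodomain factor Lhx1 and the cut-domain factors Onecut1 and Onecut2. Calbindin (Calb1) is the usual label of these cells.

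Horizontal nuclei were taken from single-nucleus RNA sequencing of sorted retinal nuclei, counted as unique molecular identifiers (UMIs, 1 per captured RNA molecule). A barcode counted as passing with at least 1000 UMIs and at most 5% of them from mitochondrial genes, and as a horizontal nucleus with at least 1 Lhx1 UMI, at least 2 Onecut1 and Onecut2 UMIs together, no Slc17a6 UMI, and at most 1 UMI each of Rbpms and Slc6a9. Slc17a6 and Rbpms mark retinal ganglion cells (RGCs) and Slc6a9 marks glycinergic amacrine cells. By this rule 512 of 39496 passing barcodes were horizontal nuclei. No barcode sequence recurred among members of different libraries.

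The libraries came from female mice at postnatal day 120 (P120), each from 6 pooled retinae, so that single animals could not be followed. Controls were Piezo2f/f mice that lacked Cre (4 libraries, replicates 1 to 4). Conditional knockouts (cKO) were Olig2-cre;Piezo2f/f (4 libraries, numbered 10 to 13). Both groups carried the floxed Piezo2 alleles. Per the study's methods Cre was knocked into the Olig2 locus, so recombination is limited to cells with a history of Olig2 expression, and the cKO mice also carried 1 altered Olig2 allele. Flow sorting on RBPMS and NeuN staining was used to enrich RGCs, and the horizontal nuclei seen here are those that passed a gate set for another cell type. Total depth was 35697629 to 60088630 UMIs in a library, and nothing in the labels says that libraries of a group shared a batch.

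Control libraries held 84, 47, 90 and 48 horizontal nuclei and cKO libraries 85, 57, 37 and 64. Horizontal nuclei of a library summed to between 227125 and 631955 UMIs. Levels are given as CPM, in which the summed UMIs of a class in a library were scaled to a total of 1000000, and errors are SD over libraries. CPM from the end of a transcript are compared within a gene and not between genes. "Other nuclei" are all passing barcodes that missed the rule. For closer comparison 1714 amacrine nuclei were gated (no Slc17a6 or Lhx1 UMI, at most 1 UMI of Rbpms and of Onecut1 and Onecut2 together, at least 1 of Tfap2a and Tfap2b, and at least 2 of Gad1, Gad2 and Slc6a9), as were 18343 RGC nuclei (at least 1 Slc17a6 and 2 Rbpms UMIs, no Lhx1).

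The values that chose the members are given first, as a description. Lhx1 (chromosome 11, 84408803 to 84416368, minus strand, GRCm39) ran from 260.3 to 479.9 CPM with a mean of 345.7 ± 79.9 (SD, n = 8 libraries), against 2.30 CPM in other nuclei. Onecut1 (chromosome 9, 74769118 to 74800594, plus strand) was at 516 ± 40.3 CPM and Onecut2 at 510.2 ± 62.1 CPM, against 36.5 and 34.8 CPM in other nuclei. At the edge of the rule, 233 members had only 1 Lhx1 UMI or only 2 Onecut UMIs, and their pooled Calb1 level was 803 CPM. The other 279 members were at 765 CPM. Just outside, 303 barcodes met every term but had no Lhx1 UMI and were at 540 CPM, 30 with 1 Onecut UMI were at 647 CPM, 73 with none were at 297 CPM, and 142 over a limit on the RGC or amacrine genes were at 451 CPM. All passing barcodes outside the rule together were at 47.4 CPM, so that some nuclei with horizontal cell transcripts were counted among the others. Leaving these 548 barcodes out of the other nuclei was an alternative added after seeing the data. Folds over other nuclei then grew by over 1.5 times for 18 of the 20 highest genes below (1.36 to 4.08 times). For Gja10 the fold went from 65.4 to 155. The folds given thus depend on where these barcodes are counted. The barcodes were picked on genes of the rule, and whether they were horizontal nuclei or doublets was not tested.

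The label was checked against markers outside the rule. Calb1 (chromosome 4, 15881155 to 15908085, plus strand), a cytoplasmic calcium buffer, had its lowest library at 589, its median at 822 and its highest at 1004 CPM, with a mean of 805 ± 123 CPM. The 8 libraries gave 24.6 to 52.8 CPM in amacrine and 33.6 to 54.0 CPM in RGC nuclei. Prox1, a homeobox factor of horizontal and AII amacrine cells, was at 1088 ± 101 CPM against 139 ± 34.3 in amacrine and 13.7 CPM in RGC nuclei. Septin4, a filament-forming GTPase, was at 865 ± 114 CPM against 35.8 ± 6.85 in amacrine nuclei. For each of these genes the lowest horizontal library lay above the highest amacrine and RGC library. Gja10 and Tfap2b, given below, did the same, although Tfap2b had helped to choose the amacrine nuclei. Slc32a1, the remaining horizontal cell marker outside the rule, went the other way against amacrine nuclei. It was at 21.0 to 58.3 CPM over horizontal and 68.5 to 194 CPM over amacrine libraries.

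**Figure D1:**
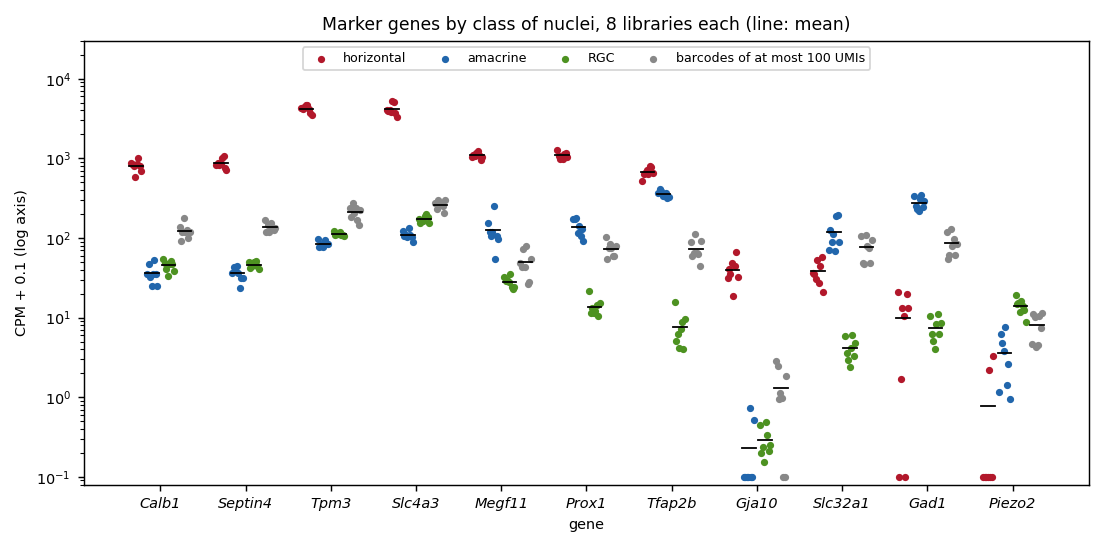
CPM + 0.1 on a log axis for 11 genes in horizontal, amacrine and RGC nuclei and in barcodes of at most 100 UMIs, 1 point per library and a line at the mean of 8 libraries; a point at 0.1 is a library at 0. Calb1, Septin4, Tpm3, Slc4a3, Megf11, Prox1 and Gja10 stand higher in every horizontal library than in any amacrine or RGC library, whereas Slc32a1 and Gad1 stand below the amacrine libraries.

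Among 12 transcription factors of the horizontal cell lineage, 3 belonged to the rule. Of the others, Onecut3, Prox1, Tfap2b and Sall3 were at least 2-fold higher than in other nuclei in 8 of 8 libraries. Onecut3, the remaining Onecut paralogue, was at 152 ± 19.3 CPM against 2.73 ± 0.882 in other and 0.469 CPM in amacrine nuclei. Tfap2b, an AP-2 factor of horizontal and amacrine precursors, was at 677 ± 92.3 CPM, while its paralogue Tfap2a was at 25.7 ± 7.22 CPM and stood below amacrine nuclei (157 CPM) in all 8 libraries. Both had helped to choose the amacrine nuclei. Sall3, a zinc finger factor needed by horizontal cells, was at 25.8 ± 8.49 CPM and at 0.0831 CPM in amacrine nuclei. Pax6, shared by both classes, was at 410 CPM here and 417 CPM there. Ptf1a and Foxn4, which act in precursors, had no UMI among 3502293, a count that allows up to 0.857 CPM each. Pooled other nuclei were below this limit too, at 0.012 and 0.0241 CPM. Meis2, a factor of GABAergic amacrine cells, was at 24.8 ± 14.6 CPM against 1191 CPM in amacrine nuclei.

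Beyond the lineage factors, 363 of 10020 genes with an average of at least 10 CPM over horizontal and other nuclei (3.62%) were at least 2-fold higher than in other nuclei in every library and 1013 (10.1%) at least 2-fold lower. These shares describe the contrast that the rule itself set up, and no test was made of them. The 20 genes outside the rule that stood highest over other nuclei, ranked by the lowest of their 8 library ratios among genes of at least 50 CPM, included 14 protein-coding genes and 6 long noncoding RNAs.

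Arhgap15 (chromosome 2, 43638815 to 44285967, plus strand), a GTPase-activating protein for Rac, was lowest at 4136, in the middle at 4431 and highest at 5845 CPM. It was at 65.9 ± 29.6 CPM in other nuclei, a ratio of means of 69.2, which was 196 without the 548 barcodes. Tecrl, an endoplasmic reticulum protein of the enoyl-CoA reductase family known from heart muscle, was at 497, 575 and 748 CPM by the same order and at 6.59 CPM in other nuclei, or 89.4-fold. Myzap, a junctional protein likewise known from heart muscle, was at 412 ± 42.8 CPM, or 74.8-fold. Both heart-associated genes were at or near 1 CPM in amacrine and in RGC nuclei.

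Enzymes and kinases made up most of the remaining coding genes. Pcsk6, a proprotein convertase, was at 1860 ± 115 CPM (51.9-fold). Prkg2, a cGMP-dependent protein kinase, was at 326 ± 20.7 CPM (35.8-fold), and Wnk4, a kinase that controls cation-chloride cotransporters, at 308 ± 49.8 CPM (58.2-fold). Pm20d1, which joins fatty acids to amino acids, was at 61.8 ± 16.3 CPM (73.5-fold). Rasef, a Rab-type GTPase, stood at 117 CPM. Hycc1, a part of the complex that carries a phosphatidylinositol kinase to the plasma membrane, was at 1062 ± 88.4 CPM (34.7-fold), and Col27a1, a fibrillar collagen, at 665 ± 105 CPM (28.4-fold).

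The noncoding genes fell into few places on the genome. Gm45459, Gm45460 and Gm45462 lie together on chromosome 8, with Gm45462 inside Gm45459 on the opposite strand and Gm45460 ending 11690 bases short of it, and were at 2461 ± 188, 304 ± 39.3 and 90.0 ± 46.4 CPM. Lhx1os spans Lhx1 on the opposite strand and was at 240 ± 28.4 CPM, and Gm28182 ends 6451 bases before the start of Onecut1 and was at 73.9 ± 17.8 CPM. Both thus neighbour genes that chose the members. The remaining one, 9030625G05Rik, was at 147 ± 19.96 CPM against 1.98 CPM in other nuclei.

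**Figure D2:**
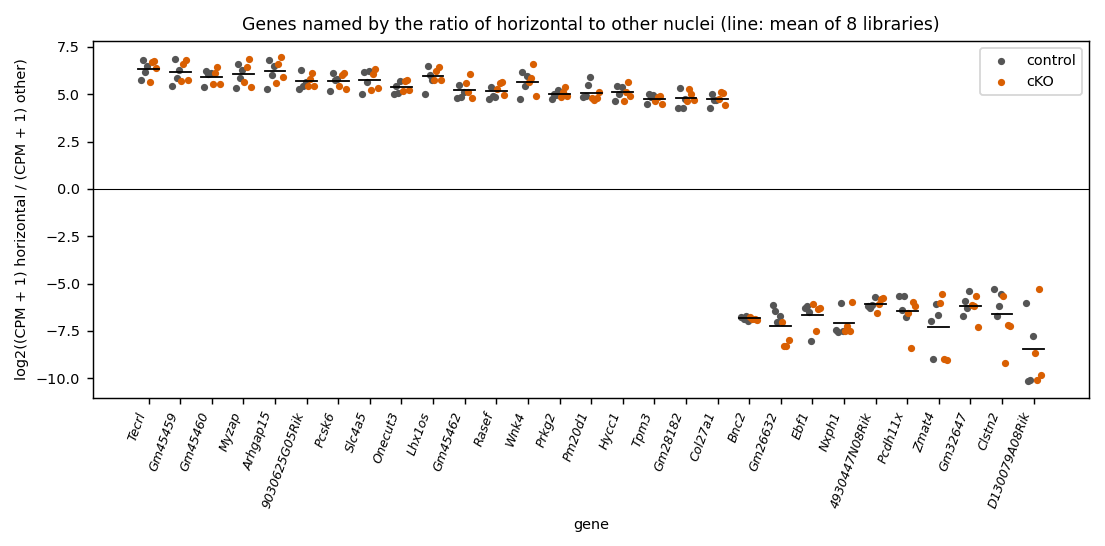
Log2 ratio of CPM + 1 in horizontal to CPM + 1 in other nuclei of the same library, for 19 of the 20 highest and the 10 lowest genes named by rule, with grey points for control and orange points for cKO libraries and a line at the mean of 8 libraries. All ratios of the 19 genes lie above 4 and all ratios of the 10 genes below -5, and control and cKO points intermingle.

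Promoters are printed for Tecrl and Arhgap15, which were among the highest genes, and for Pm20d1, whose window held most matches. Each run is the 250 bases 5′ of the start of the canonical GENCODE vM39 transcript on GRCm39, read on the strand of the gene, none of it within an annotated exon. Capitals mark ATTGAT or its reverse complement ATCAAT, a core that Onecut factors are known to bind. The second motif searched was TAATTA, a palindromic homeodomain core, and matches of the motifs may share letters.

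Tecrl, chr5:83503043-83503292, minus strand: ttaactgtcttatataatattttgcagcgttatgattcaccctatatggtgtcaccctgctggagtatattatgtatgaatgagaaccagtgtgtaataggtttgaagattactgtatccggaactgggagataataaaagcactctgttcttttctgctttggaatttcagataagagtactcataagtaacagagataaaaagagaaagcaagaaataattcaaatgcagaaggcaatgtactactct

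Arhgap15, chr2:43638565-43638814, plus strand: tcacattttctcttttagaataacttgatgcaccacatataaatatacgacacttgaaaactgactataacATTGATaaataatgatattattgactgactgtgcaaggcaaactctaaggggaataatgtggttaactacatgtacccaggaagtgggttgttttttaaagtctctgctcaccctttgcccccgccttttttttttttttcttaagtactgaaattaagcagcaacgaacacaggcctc

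Pm20d1, chr1:131724857-131725106, plus strand: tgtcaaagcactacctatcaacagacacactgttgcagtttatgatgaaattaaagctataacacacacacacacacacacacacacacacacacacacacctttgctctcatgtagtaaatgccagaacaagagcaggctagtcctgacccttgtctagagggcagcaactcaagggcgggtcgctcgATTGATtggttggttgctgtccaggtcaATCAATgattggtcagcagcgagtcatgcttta

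The Arhgap15 window held ATTGAT beginning 179 bases before the start, the Pm20d1 window held matches 61 and 33 bases before it, and the Tecrl window held none. Of the 14 protein-coding genes among the 20, 3 (21.4%) held a match on either strand. The share was 6.48% (19 of 293 windows) over protein-coding genes at least 2-fold higher in every library and 4.18% (381 of 9105) over all protein-coding genes measured. TAATTA was found in 0 of 14, 6 of 293 (2.05%) and 264 of 9105 windows (2.90%). A match says only that these letters are present.

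The 10 genes lowest against other nuclei, again with the genes of the rule left out, were ranked by the highest of their 8 library ratios among genes of at least 50 CPM in other nuclei. One of them, Gm26632, lies inside the rule gene Rbpms on the opposite strand and was at 1.36 CPM against 311 CPM. Whether the limit on Rbpms set this level was not tested. Bnc2, a zinc finger protein, had no UMI in any horizontal library, where other nuclei were at 114 ± 6.66 CPM. With the 3 UMIs that a count of 0 allows over all members it was at least 132-fold lower. Ebf1, a helix-loop-helix factor, was at 16.2 ± 5.84 CPM against 1610 ± 118 CPM, and Nxph1, a secreted neurexin ligand, at 0.400 ± 0.741 CPM from 2 UMIs against 172 CPM. Zmat4, a zinc finger gene, was at 3.47 CPM against 485 CPM, and Gm32647 at 9.10 CPM against 684 CPM. The cell adhesion genes Pcdh11x and Clstn2 were at 2.97 and 7.13 CPM against 307 and 629 CPM. RGC nuclei were at 143 CPM for Bnc2 and 1997 CPM for Ebf1. Amacrine nuclei were also far below other nuclei for Bnc2, Ebf1 and Gm32647, at 11.8, 43.5 and 10.5 CPM. For Gm32647 horizontal nuclei were above amacrine nuclei in 3 of 8 libraries. Zmat4, Clstn2, Pcdh11x and Nxph1 were at 473, 272, 74.0 and 54.5 CPM in amacrine nuclei.

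Of 12 structural and calcium-binding genes of horizontal cells, 5 were at least 2-fold higher than in other nuclei in every library and 3 at least 2-fold lower. The shares over all 10020 genes were 3.62% and 10.1%. Tpm3, a tropomyosin that lines actin filaments, was at 3528, 4278 and 4691 CPM in its lowest, middle and highest library against 76.6 to 96.1 CPM over amacrine libraries. Vim, an intermediate filament protein, was at 256 ± 50.4 CPM against 7.25 CPM in amacrine nuclei, and Ndrg1, a stress-responsive gene, at 371 ± 47.4 CPM against 7.46 CPM. The neurofilament genes did not follow, with Nefl at 44.6 ± 13.8 CPM and Nefm at 31.7 ± 13.3 CPM, both lower than in other nuclei in every library. Calb2 (calretinin), the relative of Calb1, was at 37.1 ± 13.1 CPM, against 96.0 CPM in amacrine and 213 CPM in RGC nuclei.

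Gap junction genes gave 1 clear member. Gja10 (chromosome 4, 32596960 to 32602760, minus strand), the mouse connexin of horizontal cell gap junctions, was at 18.8 CPM in the lowest, 37.8 CPM in the middle and 66.1 CPM in the highest library, and at 0.131 ± 0.248 CPM in amacrine and 0.191 CPM in RGC nuclei. Horizontal libraries did not overlap either class. Of the other 8 genes of the list, Gjd2, the connexin of amacrine and bipolar coupling, was at 2.36 ± 3.14 CPM against 32.2 CPM in amacrine nuclei. Gja1 had 2 UMIs among all members and Gjb6 none, where pooled other nuclei were at 1.34 and 0.0201 CPM. Panx1 and Panx2, which form membrane channels, were at 0.937 and 7.14 CPM, below the 12.0 and 26.7 CPM of other nuclei.

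For GABA, the vesicular transporter and the synthetic enzymes differed. Slc32a1, which loads GABA and glycine into vesicles, was at 21.0, 36.0 and 58.3 CPM in the lowest, middle and highest library, higher than in RGC nuclei (4.05 CPM) and lower than in amacrine nuclei (118 ± 50.3 CPM) in all 8 libraries. Gad1, a GABA-synthesising enzyme, was at 0 to 21.0 CPM with a mean of 9.79 ± 8.43 CPM, and its horizontal libraries overlapped RGC nuclei, at 3.94 to 10.9 CPM. Gad2 was at 3.82 ± 4.42 CPM against 7.12 CPM in RGC nuclei. Amacrine nuclei, chosen in part on Gad1 and Gad2, were at 278 and 131 CPM. The plasma membrane transporter gene Slc6a11 was at 10.3 CPM, at least 2-fold below other nuclei in every library.

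Receptors for GABA and glycine were mostly low. Of 20 genes, 18 averaged at least 10 CPM, 1 was at least 2-fold higher and 10 at least 2-fold lower than in other nuclei in every library. Over all 10020 genes 3.62% were higher and 10.1% lower by this measure. The median log2 ratio was -3.07 against -0.30 over all 10020 genes. Gabra3, the alpha subunit that was higher, stood at 106 to 150 CPM and overlapped amacrine nuclei (135 to 177 CPM). Gabra2, another alpha subunit, was at 160 ± 34.4 CPM and below other nuclei (373 CPM) in every library. Gabrg3 was at 12.2 ± 16.7 CPM against 620 CPM and the glycine receptor subunit Glra3 at 2.01 ± 2.72 CPM against 55.4 CPM. Gabrr1, a rho subunit of slow GABA currents, was low at 11.8 ± 3.58 CPM yet above amacrine nuclei (4.42 CPM) in 8 of 8 libraries.

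Of 17 ionotropic glutamate receptor genes, 16 averaged at least 10 CPM. Of these, 0 were at least 2-fold higher and 8 at least 2-fold lower than in other nuclei in every library. Over all 10020 genes 3.62% were higher and 10.1% lower by this measure. Their summed level was 5231 CPM, against 5963 CPM in other and 8601 CPM in amacrine nuclei. Of the AMPA receptor genes, Gria4 was at 1829 ± 112 CPM, Gria3 at 872 ± 75.1 CPM and Gria2 at 721 ± 104 CPM. Gria1 was at 2.71, 8.36 and 23.6 CPM in the lowest, middle and highest library against 306 to 433 CPM over amacrine and 148 to 177 CPM over RGC libraries, without overlap. Within Gria4 horizontal and amacrine libraries overlapped (1622 to 1952 against 1707 to 2080 CPM), and within Gria3 horizontal nuclei were 1.21-fold higher and higher in 8 of 8 libraries.

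The kainate receptor gene Grik2 was at 746 ± 45.0 CPM, above RGC nuclei (344 CPM) and below amacrine nuclei (1217 CPM) in every library. Grin1, the subunit that every NMDA receptor contains, was at 393 ± 55.5 CPM and above both classes in 8 of 8 libraries. Its partners were near 0: Grin2a was at 8.68 ± 6.98 CPM against 388 CPM in amacrine nuclei and Grin2b at 13.1 ± 12.0 CPM against 389 CPM. Grin2d and Grin3a were at 2.39 and 9.32 CPM, and Grin2c had no UMI. The delta receptor gene Grid1 was at 9.17 CPM against 425 CPM in RGC nuclei.

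Of 8 metabotropic glutamate receptor genes, 6 averaged at least 10 CPM and 5 of these were at least 2-fold lower in every library, where 10.1% of all 10020 genes were. Grm8, a Gi-coupled receptor, was at 40.3 ± 21.6 CPM against 1528 CPM in amacrine nuclei. Grm7 was at 197 ± 16.7 CPM and Grm3 at 77.4 ± 22.8 CPM. Grm6, the receptor of ON bipolar dendrites, was at 4.11 CPM.

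**Figure D3:**
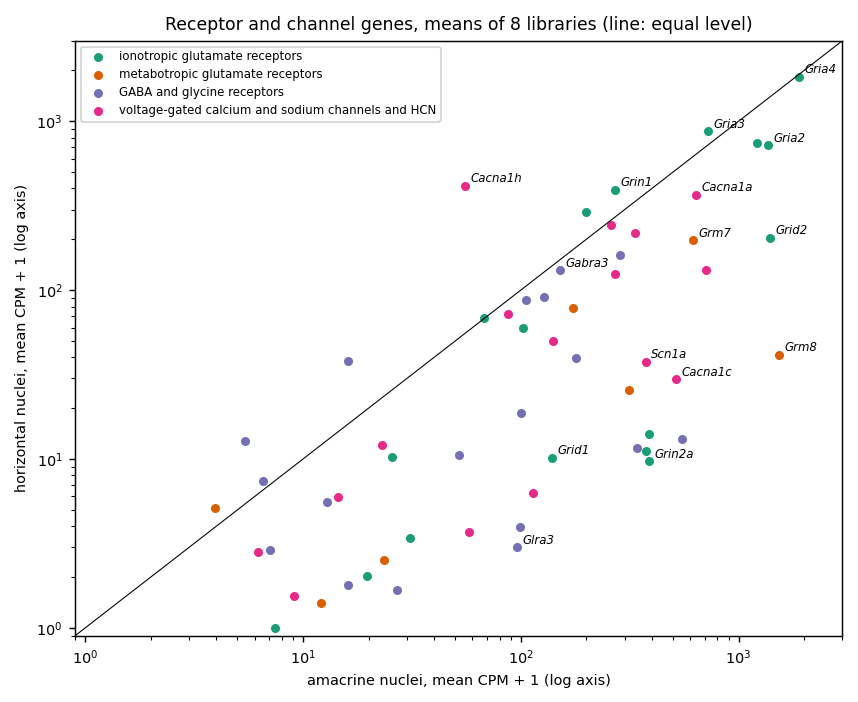
Mean CPM + 1 over 8 libraries in horizontal nuclei (vertical) against amacrine nuclei (horizontal) on log axes, with 1 point for each gene shown, coloured by family, and a line of equal level, to be read as the distance of a gene from the line. Cacna1h lies furthest above the line, Gria4, Gria3 and Gabra3 lie close to it, and Grin2a, Grm8 and Glra3 lie far below.

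Among 17 voltage-gated calcium, sodium and HCN channel genes, 14 averaged at least 10 CPM, 1 was at least 2-fold higher and 7 at least 2-fold lower in every library. Over all 10020 genes 3.62% were higher and 10.1% lower in this way. Cacna1h (chromosome 17, 25593259 to 25652764, minus strand), a pore of low-threshold T-type calcium channels, was at 357, 405 and 475 CPM in its lowest, middle and highest library. It was at 54.3 ± 6.32 CPM in amacrine and 21.5 CPM in RGC nuclei. Its relatives Cacna1g and Cacna1i were at 71.2 ± 10.4 and 2.67 CPM. Of the L-type pores, Cacna1d was at 131 ± 13.2 CPM and Cacna1c at 28.6 ± 14.3 CPM against 514 CPM in amacrine nuclei. The sodium channel gene Scn1a was at 36.5 ± 13.7 CPM against 605 CPM in RGC nuclei, whereas Scn8a and Scn2a were at 242 and 218 CPM.

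Genes that move bicarbonate and protons had 2 members far above other nuclei. Slc4a3, a chloride-bicarbonate exchanger, was at 3283, 3983 and 5201 CPM in the lowest, middle and highest library against 109 ± 13.6 CPM in amacrine nuclei, or 37.9-fold. Slc4a5, a sodium-bicarbonate cotransporter, was at 683 ± 55.9 CPM against 6.68 CPM, or 102-fold. Of the 19 genes, 15 averaged at least 10 CPM, and 3 of these were at least 2-fold lower in every library, where 10.1% of all 10020 genes were. Slc4a10 was at 256 ± 40.4 CPM, close to the 331 CPM of other nuclei, and Car2, a carbonic anhydrase, at 28.6 ± 13.7 CPM. Car10, a catalytically inactive relative, was at 23.8 ± 27.2 CPM against 1446 CPM in RGC nuclei.

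Adhesion and guidance genes were divided, with 5 of 19 at least 2-fold higher and 9 at least 2-fold lower in every library. The shares over all 10020 genes were 3.62% and 10.1%. Megf10 and Megf11, transmembrane proteins that space horizontal and starburst cells, were at 121 ± 19.9 and 1092 ± 84.1 CPM against 13.1 and 50.7 CPM in other nuclei. Lrrc4, a postsynaptic ligand of netrin-G proteins, was at 1981 ± 211 CPM against 166 CPM, while its paralogue Lrrc4c was at 303 ± 108 CPM against 4158 CPM. Plxna4, a semaphorin receptor, was at 467 ± 78.8 CPM (6.33-fold) and its ligand gene Sema6a at 509 ± 48.7 CPM (1.95-fold).

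The sidekick genes, adhesion molecules of retinal lamination, ran in opposite directions. Sdk2 was at 663 ± 74.8 CPM against 75.8 CPM in amacrine nuclei and Sdk1 at 43.2 ± 33.1 CPM against 1707 CPM. Dscam, which spaces amacrine cells and RGCs, was at 21.1 ± 19.03 CPM against 897 CPM in amacrine nuclei, and Ntng1, a netrin-G, at 12.3 ± 9.84 CPM against 622 CPM in RGC nuclei.

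Piezo2, the deleted gene, was scarce in horizontal nuclei of both genotypes. No control library had a UMI, and cKO replicates 10 and 13 gave 3 UMIs in all. Pooled, this is 0.857 CPM with an exact Poisson 95% interval of 0.177 to 2.50 CPM, which covers counting error only, against 11.5 CPM in other nuclei and 14.0 CPM in RGC nuclei. Amacrine nuclei were nearer, at a mean of 3.46 ± 2.48 CPM, and horizontal nuclei were above them in 1 of 8 libraries. The ratio of other to horizontal nuclei was 13.4 with a counting interval of 4.60 to 65.2. Barcodes of at most 100 UMIs, which hold mostly free RNA, were at 7.86 CPM, above the horizontal level. Piezo1 had 2 UMIs (0.571 CPM, interval 0.0692 to 2.06 CPM). Olig2 had none, an upper limit of 0.857 CPM and of 0.586% of nuclei with a UMI. Pooled other nuclei were at 0.008 CPM, below this limit, so the count does not set horizontal nuclei apart. Whether horizontal cells had recombined cannot be read from these counts.

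Of 11 mechanically activated channel genes, 3 averaged at least 10 CPM and none of these was 2-fold higher or lower in every library. Trpc1 was at 62.7 ± 17.4 CPM, Tmem63b at 74.4 ± 17.2 CPM and Tmem63c at 63.1 ± 12.7 CPM. Kcnk2, a stretch-sensitive potassium channel gene, had no UMI and was at least 19.3-fold lower than in other nuclei (16.5 CPM).

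Immediate early genes, which follow neuronal activity, were low, with 2 of 14 averaging at least 10 CPM, and Nr4a1, an orphan nuclear receptor, at 6.98 ± 4.19 CPM against 41.9 CPM in other nuclei. Of 14 sterol synthesis genes, 13 averaged at least 10 CPM and 1 was at least 2-fold lower in every library, where 10.1% of all 10020 genes were. Cyp51, which demethylates lanosterol, was at 52.8 ± 14.8 CPM against 102 CPM.

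Markers of other cells were examined for transcripts carried into horizontal nuclei. The 10 rod markers summed to 747 CPM on average, against 877 CPM in amacrine nuclei and 7999 CPM in barcodes of at most 100 UMIs, the 12 RGC markers, of which the rule held Slc17a6 and Rbpms at or near 0, to 155 CPM, and the 8 cone markers to 32.1 CPM. The 5 lens markers summed to 100.4 and 157 CPM in control replicates 2 and 3 and to 4.85 to 18.3 CPM in the other 6 libraries. The 5 astrocyte markers summed to 17.5 CPM on average, the 6 endothelial markers to 15.9 CPM and the 8 oligodendrocyte lineage markers to 3.44 CPM. Amacrine markers, which include Tfap2b and the rule gene Slc6a9, summed to 765 CPM. Of 6 microglia markers, C1qa, C1qb and Csf1r were at 0, where pooled other nuclei were also low at 0.165, 0.165 and 0.847 CPM. P2ry12 was at 117 ± 36.6 CPM, above other nuclei (60.6 CPM) in 8 of 8 libraries. The part of free RNA in the low levels of other genes was not tested.

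Malat1, a nuclear noncoding RNA, took a large part of each profile. It was at 85411 to 163738 CPM in horizontal nuclei, a mean of 134575 ± 30512 CPM in control and 120304 ± 40863 CPM in cKO libraries. In the same libraries amacrine nuclei were at 23880 to 50029 CPM. CPM of all other genes in horizontal nuclei are computed with Malat1 in the total.

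To ask how alike the members were, the variance of a gene over nuclei was divided by that given by counting at each depth (dispersion index, 1 for counting alone). Over 4882 genes with at least 0.2 UMIs per nucleus the median was 1.14, and 202 genes (4.14%) exceeded 2. The 30 highest differed in how many nuclei carried them.

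Some were present in nearly all nuclei at different levels. Arhgap15 had a UMI in 507 of 512 nuclei, with the 5th percentile of nuclei at 708 CPM, the median at 4054 CPM and the 95th percentile at 10247 CPM. Nrg1, a growth factor gene, ran from 1822 through 4355 to 8779 CPM, and Hs6st3, a heparan sulfate sulfotransferase gene, from 4780 through 9720 to 15508 CPM by the same percentiles. In each of these genes the 5 highest nuclei held 4.39% to 6.42% of the UMIs.

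Others rested on few nuclei. Galntl6, an RGC-rich glycosyltransferase gene, had 254 UMIs, of which 162 came from 1 nucleus of control replicate 4. For Nrg3, a neuregulin gene, the 5 highest nuclei held 71.4% of 273 UMIs, and for Csmd3 and Fgf14 82.1% and 75.4%. With the 18 members removed that had the highest doublet scores, Nrg3 fell to 56 UMIs, Galntl6 to 51 and Fgf14 to 30 of 175, while Arhgap15 kept 15576 of 16168.

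**Figure D4:**
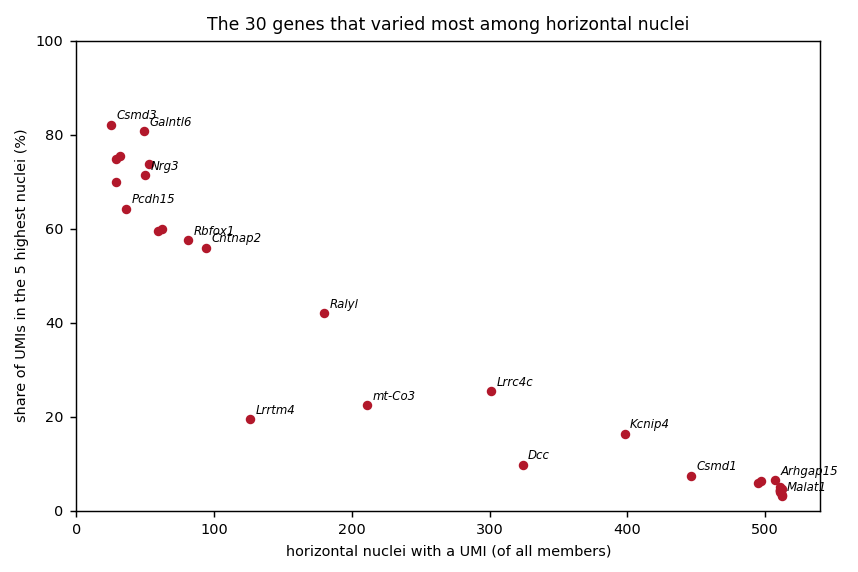
Share of UMIs in the 5 highest nuclei (percent) against the number of horizontal nuclei with a UMI, for the 30 genes with the highest dispersion index. Malat1 and Arhgap15 sit at the lower right, with UMIs in nearly all nuclei and under 7% of them in the 5 highest, and Csmd3, Galntl6 and Nrg3 at the upper left, with over 70%.

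Between libraries, the 3203 genes of at least 50 CPM had a median coefficient of variation of 18.6%, and 44 exceeded 50%. Slc15a2, a peptide transporter gene, was at 194, 2.71, 31.6 and 94.8 CPM in control replicates 1 to 4 and at 100, 88.1, 93.3 and 87.3 CPM in cKO replicates 10 to 13. Control replicate 2 was the lowest and control replicate 1 the highest for this gene in amacrine and RGC nuclei also, at 26.8 and 137 CPM and at 4.05 and 21.0 CPM. Gm47283 was at 7.86 CPM in control replicate 1 and 66.0 to 198 CPM in the other 7 libraries, and control replicate 1 was again lowest in the other classes (12.7 and 10.4 CPM).

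The effect of the cKO genotype was then examined over libraries. Horizontal nuclei made up 1.62%, 0.833%, 1.74% and 1.77% of passing barcodes in control replicates 1 to 4 and 1.598%, 1.09%, 0.631% and 1.47% in cKO replicates 10 to 13. The groups overlapped, with the lowest library in cKO and the highest in control. The means were 1.49 ± 0.443% and 1.20 ± 0.435% (SD, n = 4 each), a difference of -0.293 percentage points within the spread of libraries (two-sided exact permutation test over 70 assignments, p = 0.314). Without control replicate 2 the groups did not overlap and the difference was -0.512 (exact permutation p = 0.0571, the smallest that 3 against 4 allows), and without cKO replicate 12 it was -0.104 (exact permutation p = 0.629). The smallest p that 4 against 4 allows is 0.0286, and the sort can set these shares.

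Depth per horizontal nucleus overlapped as well. Median UMIs were 4282, 7603, 6777.5 and 11185 in control and 5190, 3654, 6830 and 8837.5 in cKO libraries (7462 ± 2856 and 6128 ± 2224, SD, n = 4 each, exact permutation p = 0.543). Median genes per nucleus were 2672 ± 567 and 2497 ± 458 (exact permutation p = 0.686). Without control replicate 4, which had the highest median, the difference in median UMIs shrank from -1334 to -93.0.

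Few or no genes were called between genotypes, depending on the setting. With edgeR's quasi-likelihood test on summed counts, 0 of 5941 genes (0%) passed a Benjamini-Hochberg adjusted p under 0.05 with an absolute log2 fold change over 0.5. At an unadjusted p under 0.05 there were 243 genes (4.09%), and the CPM of the groups did not overlap for 170 (2.86%). The smallest permutation p that 4 against 4 allows, 0.0286, is also the chance of no overlap for a gene without a difference. DESeq2 called 1 gene (0.0168%), Lars2, as did edgeR with doublets removed. Without the low-count filter edgeR called 16 of 19642 genes, 6 higher and 10 lower in cKO, of which 8 had passed the filter. The smallest adjusted p among them by edgeR was 8.289e-13, for Galntl6 (log2 fold change -2.20), with 65.0% of its 254 UMIs in control replicate 4. In simulated data of the same depth 200 of 5930 genes were changed at once, with the spread between libraries set by its fitted trend over genes. There edgeR recovered 67% of genes changed 2-fold and 81% of those changed 4-fold, and called 1 unchanged gene. With fewer genes changed the adjusted threshold is harder to pass, so these shares do not give the recovery in the real data. The 24 gene lists held no called gene. The median log2 fold change was -0.03 over the 6 lineage factors tested, 0.02 over 10 structural genes, -0.11 over 9 ionotropic glutamate receptor genes and 0.00 over all genes.

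The 5 genes with the smallest unadjusted p in each direction are given, none of them called by edgeR with the low-count filter and all members. As they were picked on this comparison, a lack of overlap between the groups is no further evidence of a difference. Lars2 (chromosome 9, 123195952 to 123291731, plus strand), the mitochondrial leucyl-tRNA synthetase, was at 162, 133, 119 and 100.4 CPM in control and 242, 304, 206 and 215 CPM in cKO libraries, without overlap. Its log2 fold change was 0.85 ± 0.153 (SE) with an edgeR adjusted p of 0.112. The adjusted p was 0.0463 with DESeq2, 0.0450 by edgeR with doublets removed and 0.003419 by edgeR without the low-count filter. Over all alternatives it ran from 0.003419 to 0.9999. Amacrine and RGC nuclei of the same libraries showed the same order of groups, with 139 ± 24.1 against 250 ± 60.1 CPM and 125 ± 23.8 against 216 ± 37.7 CPM. Barcodes of at most 100 UMIs were at 1073 ± 277 CPM in control and 1430 ± 376 CPM in cKO libraries, so that Lars2 was higher in free RNA than in nuclei. The part of free RNA in the difference was not tested.

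The other genes highest in cKO had few UMIs. Tars, a threonyl-tRNA synthetase gene, was at 31.4, 13.6, 18.99 and 20.5 CPM in control and 56.3, 39.6, 54.4 and 32.3 CPM in cKO libraries (log2 fold change 1.03, edgeR adjusted p = 0.9997). Tdrd7, an RNA granule gene, had 111 UMIs in all and also did not overlap, with a log2 fold change of 0.93. Pcdh15 (1.53) and Edil3 (1.37) overlapped between groups, and their 5 highest nuclei held 64.2% and 41.5% of their UMIs. Removing the 18 members with high doublet scores took Pcdh15 from 151 to 71 UMIs and Edil3 from 82 to 39, and neither was then tested. The log2 fold change of Pcdh15 was 2.23 without control replicate 3 and 1.16 without cKO replicate 13, and without the low-count filter edgeR called it (1.504, adjusted p = 0.00142). That of Edil3 was 2.63 with a stricter gate (at least 2 Lhx1 and 3 Onecut UMIs) and 0.98 without cKO replicate 12.

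Of the genes lowest in cKO, Aff1, a part of the elongation complex of RNA polymerase II, was at 1126, 1110, 1074 and 1320 CPM in control and 963, 929, 870 and 843 CPM in cKO libraries. Every cKO library was below every control library, and the log2 fold change was -0.43 ± 0.0978 (SE, edgeR adjusted p = 0.707). Trerf1, a transcriptional regulator of steroid enzymes, was at 96.9, 78.7, 91.8 and 76.2 CPM against 50.05, 44.0, 42.7 and 51.8 CPM, again without overlap (-0.88 ± 0.206, edgeR adjusted p = 0.707). Kcnq5, a potassium channel gene of the M-current, was at 558, 795, 514 and 545 CPM against 536, 379, 369 and 395 CPM, where the groups overlapped (-0.56). Without the low-count filter edgeR called Kcnq5 (-0.60, adjusted p = 0.01371). Wasf2 (-1.01), an actin regulator, did not overlap and Vwc2 (-0.37), a secreted BMP modulator, did.

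**Figure D5:**
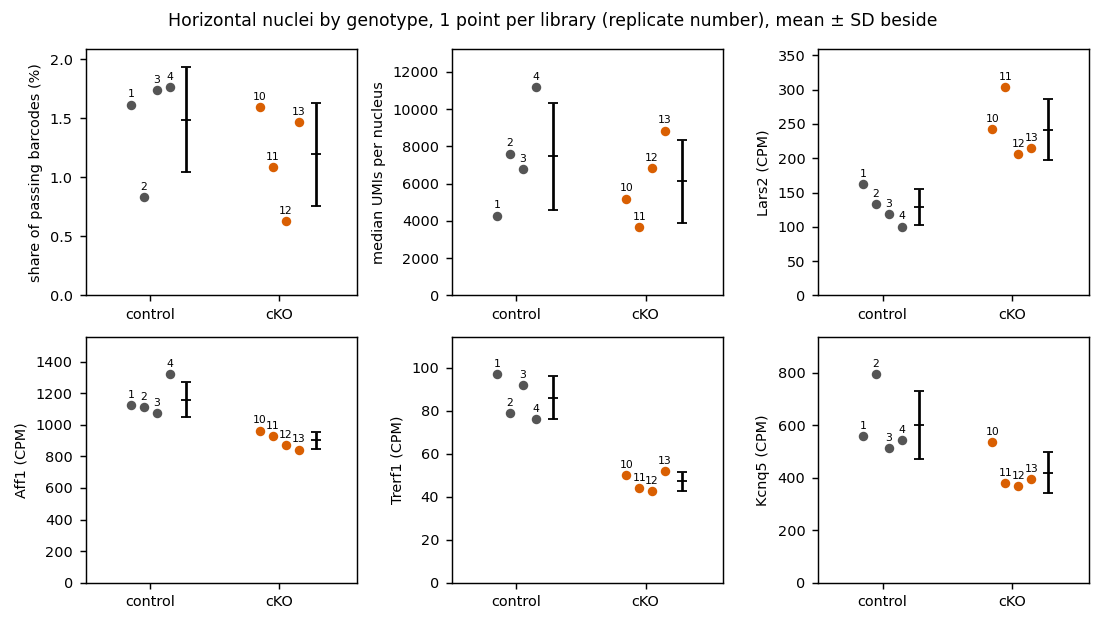
Share of passing barcodes, median UMIs per nucleus and CPM of Lars2, Aff1, Trerf1 and Kcnq5 in horizontal nuclei, with 1 point per library numbered by replicate, and mean ± SD (n = 4) beside each group. Control and cKO libraries overlap for the share, the depth and Kcnq5 and do not overlap for Lars2, Aff1 and Trerf1. The genes shown were picked by their small p in this comparison. No gene shown passed the adjusted threshold with edgeR with the low-count filter over all 512 members. Lars2 passed with DESeq2 and by edgeR with doublets removed, and both Lars2 and Kcnq5 passed by edgeR without that filter.

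Marker genes of horizontal cells differed little by genotype. Calb1 had a log2 fold change of 0.04, which turned to -0.0724 with the stricter gate, -0.0697 without control replicate 4 and -0.0178 without cKO replicate 11, and Prox1 one of -0.08. Tpm3 (-0.21, unadjusted p = 0.0295 by edgeR) and Ndrg1 (-0.27) had nominal p-values only. Rod markers summed to 324 to 1035 CPM in control and 561 to 1497 CPM in cKO libraries, and the groups overlapped. Bipolar markers summed to 109 to 171 CPM in control and 175 to 344 CPM in cKO libraries, without overlap, and Müller glia markers to 70.7 to 186 and 138 to 264 CPM. The part of these transcripts in the genotype differences above was not tested.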

How the data were processed

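The authors deposited raw counts of UMIs per gene and barcode, made with Cell Ranger 7.0.0 per the submitters' processing notes, before their own background removal, filtering and doublet removal. All 33696 feature IDs were used, and 33185 were found in GENCODE vM39. The 8 matrices were gated as described, and counts were summed per library and class. The gate replaces an annotation of cell types, so shares depend on it. Scrublet (scanpy 1.11.5) scored doublets, and 18 horizontal nuclei were removed only as an alternative.

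Genotypes were compared with edgeR 4.0.16 (quasi-likelihood test, TMM scaling, low-count filter, R 4.3.3), with Benjamini-Hochberg adjustment over all genes tested, and called when the adjusted p was under 0.05 and the log2 fold change exceeded 0.5 in size. DESeq2 1.42.0 was the alternative. For values with 1 number per library, exact permutation tests (two-sided) were run with scipy 1.17.1. Nothing says the libraries were independent beyond pooling separate retinae, so p-values measure the spread between libraries. Horizontal and other nuclei were compared as a description, on log2 ratios with a pseudocount of 1 CPM. edgeR was tested on simulated data. Intervals and limits cover counting error only.

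Members and gene lists were chosen with earlier results of these data known. Named genes were the 20 highest and 10 lowest against other nuclei outside the rule, the 5 per direction with the smallest p between genotypes, extremes of each list, and Piezo1, Piezo2 and Olig2. Further list members and genes of the spread analysis were named after their values were seen. Some genes that these rules name are not reported here.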

Additional observations from a re-analysis of the deposited data

Results flagged for a closer look

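In groups of 4 libraries, the highest or lowest value was marked where its gap to the nearest other value was a large part of the range of the group (Dixon's criterion at 95%). Of 72 groups examined 5 were marked, where chance marks about 1 in 20, or 3.6. The share of horizontal nuclei in control replicate 2 was 0.833%, with the other control libraries at 1.62% to 1.77%. Arhgap15 was at 5845 CPM in cKO replicate 13, with the other cKO libraries at 4425 to 4502 CPM. Lhx1os was at 204.5 CPM in control replicate 4 against 230.7 to 234.2 CPM. Kcnq5 was marked in both groups, at 795.2 CPM in control replicate 2 against 514.3 to 558.0 CPM and at 535.9 CPM in cKO replicate 10 against 369.1 to 394.6 CPM.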

How the results depend on the processing

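The number of genes called between genotypes was 0 with edgeR, 1 with DESeq2, 16 without a filter on low counts and 1 with doublets removed, and 0 to 0 when each library was left out. The cause of these differences was not tested. Lars2 had an adjusted p of 0.0463 with DESeq2 and 0.0450 by edgeR with doublets removed, and from 0.003419 to 0.9999 over 15 alternatives, with log2 fold changes of 0.75 to 0.93. The 16 genes included Lars2, Pcdh15, Kcnq5 and Galntl6, and 8 of the 16 were not tested with the filter. The log2 fold change of Calb1 turned from 0.04 to -0.0724 with the stricter gate (at least 2 Lhx1 and 3 Onecut UMIs). It ranged from -0.0697 to 0.0937 when each library was left out, and was below 0 without control replicate 4 (-0.0697) and without cKO replicate 11 (-0.0178). Thinning every nucleus to 1000 UMIs left 224 genes at least 2-fold higher in every library, of which 219 were among the 363, and 772 at least 2-fold lower, of which 659 were among the 1013. The stricter gate gave 299 and 901. Leaving out the 548 barcodes just outside the rule, chosen after seeing the data, gave 372 and 1028. Leaving out each library gave 366 to 378 genes higher and 1029 to 1053 lower, a difference in share of -0.512 to -0.104 percentage points and in median UMIs of -2394 to -93.0. The difference in share was -0.512 without control replicate 2 (exact permutation p = 0.0571, the smallest that 3 against 4 allows) and -0.104 without cKO replicate 12. No paired analysis was possible because control and cKO replicates share no replicate numbers. Depth limits what can be said of genes of a few UMIs.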
